A study of Homo sapiens with 6 samples.

Results

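EPCAM, MUC1, CSPG4, F3 and PROM2 encode proteins of the tumour cell surface, several of them pursued as targets of antibodies, antibody-drug conjugates or engineered T cells in lung and other cancers. They were chosen by symbol from the deposited all-gene table, where each was found once, so that 5 genes of 12659 are described here. Earlier results of these data were known when they were chosen, so ranks of their changes among all genes may partly restate that choice. RNA was measured, not protein on the surface. Polyadenylated RNA came from 2 human cell lines with 3 libraries each: NCI-H1650, an established lung adenocarcinoma line with an activating EGFR deletion, labelled pre-LUAD, and NCI-H1650Re, labelled post-SCLC. The series was made to find genes that changed between the state before and the state after transformation to small cell lung cancer. The labels give NCI_H1650 as the cell line of both groups and name no drug, passage or clone, so the sources used here do not tell how the derivative was obtained or whether it is 1 clone. Nor do the labels call the replicates separate cultures, and every p-value therefore reflects the spread among these libraries alone, which may be technical.

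EPCAM is a homophilic adhesion glycoprotein of simple epithelia that is shed by proteases. MUC1 is a transmembrane mucin whose long O-glycosylated ectodomain carries tumour-associated glycans. CSPG4 is a transmembrane chondroitin sulphate proteoglycan known from melanoma cells and pericytes. F3, tissue factor, is the receptor that starts blood coagulation by binding factor VII. PROM2 is a prominin, a cholesterol-binding protein of membrane protrusions related to PROM1.

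In NCI-H1650Re, CSPG4 was higher than in NCI-H1650 and EPCAM and PROM2 were lower, whereas MUC1 and F3 did not pass the test. CSPG4 rose from 1.44 ± 0.659 to 12.5 ± 1.61 FPKM, 8.68 times its level in NCI-H1650. PROM2 fell from 23.4 ± 2.73 to 6.85 ± 2.14 FPKM, and EPCAM fell from 148 ± 14.0 to 104 ± 10.4 FPKM (SD, n = 3 per line). MUC1 was at 40.9 ± 4.45 and 31.1 ± 10.3 FPKM, and F3 at 11.7 ± 1.49 and 14.7 ± 2.82. FPKM are fragments per kilobase of transcript, scaled to a common depth. A call is a Benjamini-Hochberg adjusted p under 0.05 in limma, fitted to log2(FPKM + 1) of the 11764 genes whose mean reached 1 FPKM in NCI-H1650 or in NCI-H1650Re. All 5 antigen genes passed that filter. Of them, 1 was called higher and 2 lower; over all genes tested, 16.6% were called higher, 13.9% lower and 30.5% in either direction, so a call is common in this comparison.

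**Figure D1:**
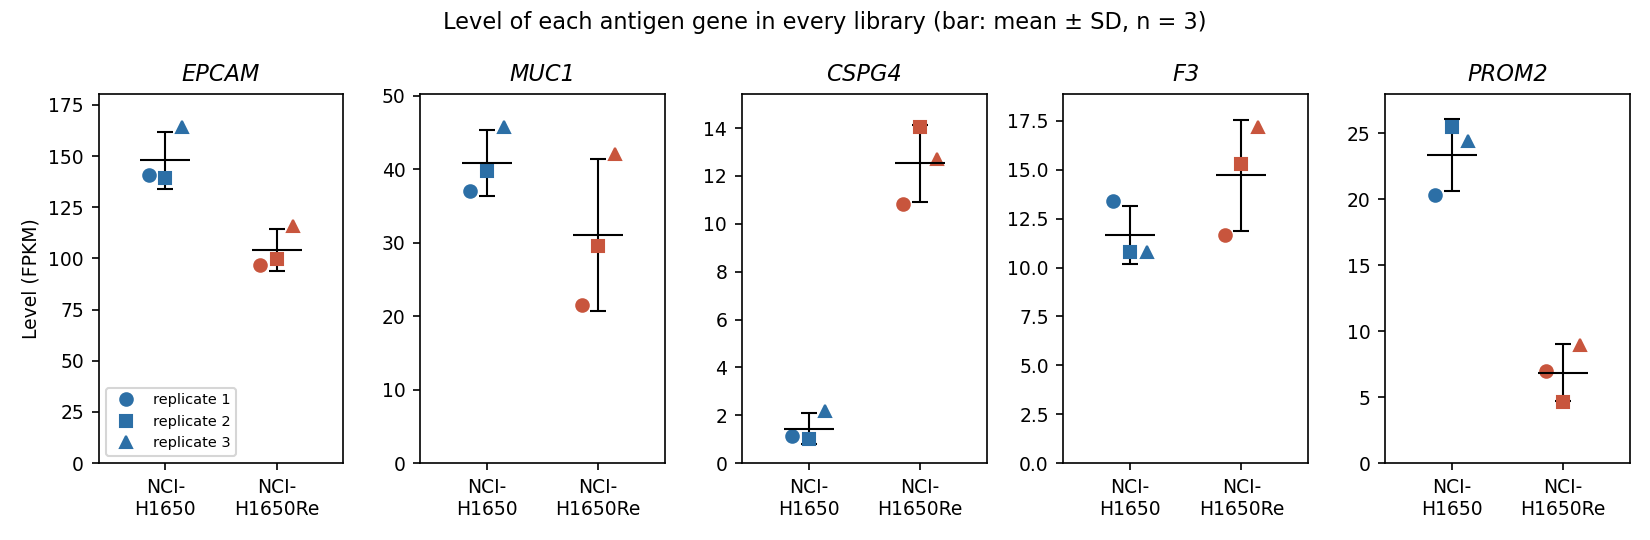
Level of EPCAM, MUC1, CSPG4, F3 and PROM2 in FPKM (vertical axis, from 0, own scale per gene) in each library of NCI-H1650 (blue) and NCI-H1650Re (red), with the mean ± SD of 3 libraries in black and a marker shape for each replicate number. The libraries of the 2 lines do not overlap for EPCAM, CSPG4 and PROM2 and overlap for MUC1 and F3.

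The 6 libraries had an estimated depth of 17.0 to 22.3 M fragments, so that 1 FPKM stood for about 17.0 to 22.3 fragments per kilobase. Replicate 3 of each line stood apart from the other 2 libraries of its line: Pearson correlations of log2 values across genes were 0.988 and 0.990 in NCI-H1650 and 0.980 and 0.988 in NCI-H1650Re, against 0.997 and 0.994 between replicates 1 and 2. Across lines, the 2 replicate 3 libraries were the most alike pair (0.970, against 0.959 to 0.967 in the other pairs). Results that change without the replicate 3 libraries are given below. Marker lists of the labelled cell types were set beside the libraries. Of 11 lung adenocarcinoma markers, the 5 with values, KRT7, KRT8, KRT18, KRT19 and CDH1, summed to 3315 to 4411 FPKM in NCI-H1650 and 2921 to 2941 in NCI-H1650Re. These 5 are general epithelial genes, so their sum does not test the adenocarcinoma label. Of 10 small cell markers, the 3 with values, CHGA, SYP and DLL3, summed to 4.47 to 5.59 and 7.48 to 11.2 FPKM. Of the epithelial genes KRT19 fell from 754 ± 97.5 to 68.7 ± 41.8 FPKM, KRT8 from 1191 ± 195 to 861 ± 30.0 and CDH1 from 248 ± 9.16 to 141 ± 23.4. The KRT8 call was lost without replicate 2 of either line (limma adjusted p = 0.0660 and 0.0611). KRT7, at 800 ± 124 and 1012 ± 77.9 FPKM, and KRT18, at 783 ± 174 and 846 ± 37.3, did not pass (limma adjusted p = 0.0563 and 0.501). Without NCI-H1650 replicate 3 both were called higher (limma adjusted p = 0.0106 and 0.0212), and KRT7 was also called without NCI-H1650Re replicate 3 (0.0484). Of the small cell markers CHGA rose from 0.563 ± 0.590 to 3.39 ± 1.55 FPKM, passing the filter only through NCI-H1650Re. SYP, at 1.23 ± 0.159 and 1.65 ± 0.240 FPKM, and DLL3, at 3.13 ± 0.156 and 4.10 ± 0.695, did not pass (limma adjusted p = 0.124 and 0.0833). Both were called higher without NCI-H1650Re replicate 3 (limma adjusted p = 0.0446 and 0.00877) and without both replicate 3 libraries (0.0198 and 0.0108). NKX2-1, NAPSA, NEUROD1, INSM1 and POU2F3 were not analysed here. In bulk RNA, fewer cells that express a gene and less RNA per cell cannot be told apart.

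CSPG4 and PROM2 moved furthest, in opposite directions, and the 250 bases upstream of each gene's start are shown so that the letters of the regions can be compared. They are from RefSeq (GRCh38.p14), 5′ to 3′ on the strand of the gene, with matches to the motifs below in capitals.
CSPG4 promoter, chr15:75712849-75713098, minus strand: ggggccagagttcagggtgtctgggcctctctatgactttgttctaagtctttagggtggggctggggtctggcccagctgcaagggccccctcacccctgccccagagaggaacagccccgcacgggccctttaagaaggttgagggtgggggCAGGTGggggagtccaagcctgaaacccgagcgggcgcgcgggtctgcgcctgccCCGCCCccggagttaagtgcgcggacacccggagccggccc
PROM2 promoter, chr2:95274199-95274448, plus strand: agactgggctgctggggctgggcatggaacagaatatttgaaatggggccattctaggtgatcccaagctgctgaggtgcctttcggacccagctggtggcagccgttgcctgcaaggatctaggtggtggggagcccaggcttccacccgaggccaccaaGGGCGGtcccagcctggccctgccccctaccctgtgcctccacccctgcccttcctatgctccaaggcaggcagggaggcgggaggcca
The motifs searched on both strands were the E-box CACCTG, the AP-1 motif TGANTCA, the GC box GGGCGG and the TATA motif TATAAA. The CSPG4 window held 1 CACCTG and 1 GGGCGG match and 14 CpG dinucleotides. The PROM2 window held 1 GGGCGG match, none of the other motifs, and 5 CpG. Among 35116 promoter windows of the same length, 17.5% held CACCTG, 6.57% TGANTCA, 42.6% GGGCGG and 10.7% TATAAA. The F3 window held 2 TGANTCA, 4 GGGCGG and 1 TATAAA match. A MUC1 window held 2 CACCTG, 4 GGGCGG, some of them overlapping, and 1 TATAAA match. These matches describe letters and are not binding sites.

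Among the epithelial antigens, EPCAM (ENSG00000119888; chromosome 2, 47345158 to 47387601, GRCh38) was the most abundant of the 5 genes in both lines. Its levels were 141, 139 and 164 FPKM in the NCI-H1650 libraries (replicates 1, 2 and 3, here and below) and 96.7, 99.7 and 116 FPKM in the NCI-H1650Re libraries. Replicate 3 was highest in each line, and every NCI-H1650Re library lay below every NCI-H1650 library. Of all genes tested, 47.2% had lines that did not overlap, 26.3% with NCI-H1650Re higher and 21.0% with it lower. The difference of mean log2(FPKM + 1), NCI-H1650Re less NCI-H1650 and called the log2 change here, was -0.50 (SE 0.10, 95% interval -0.73 to -0.28, limma adjusted p = 0.00812). The level in NCI-H1650Re was 0.704 times that in NCI-H1650. EPCAM still stood at the 95.8th percentile of level among genes tested in NCI-H1650Re, against the 97.3rd in NCI-H1650. The authors' deposited table gives a log2 fold change of -0.53 and an FDR of 0.000349 for EPCAM and does not mark it as regulated. The genes that table marks all had an absolute log2 fold change of at least 1.

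PROM2 (ENSG00000155066; chromosome 2, 95274453 to 95291308, GRCh38) measured 20.3, 25.5 and 24.4 FPKM in the NCI-H1650 libraries and 6.97, 4.66 and 8.93 FPKM in the NCI-H1650Re libraries. The lines were separated by a wide gap, and NCI-H1650Re replicate 2 was the lowest library. The read counts deposited by the authors were 2140, 2331 and 1959 for NCI-H1650 and 670, 475 and 764 for NCI-H1650Re. The log2 change was -1.67 (SE 0.19, 95% interval -2.11 to -1.22, limma adjusted p = 0.00120), and NCI-H1650 had 3.41 times the level of NCI-H1650Re. This change lay at the 0.357th percentile of all genes tested. The authors' deposited table gives -1.80 and an FDR of 2.73e-18.

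MUC1 (ENSG00000185499; chromosome 1, 155185824 to 155192916, GRCh38) measured 37.1, 39.8 and 45.8 FPKM in the NCI-H1650 libraries and 21.6, 29.5 and 42.1 FPKM in the NCI-H1650Re libraries. NCI-H1650Re replicates 1 and 2 lay below all NCI-H1650 libraries, and replicate 3 lay among them. The highest NCI-H1650Re library had 1.95 times the level of the lowest, against 1.23 times in NCI-H1650. The log2 change was -0.43 (SE 0.21, 95% interval -0.92 to 0.06, limma adjusted p = 0.160) and did not pass, which does not show that the level was alike. One library decided this call: without NCI-H1650Re replicate 3 the log2 change was -0.67 (limma adjusted p = 0.00907), and with both replicate 3 libraries left out it was -0.58 (limma adjusted p = 0.0112). Without NCI-H1650Re replicate 1 it was -0.20 (limma adjusted p = 0.377). The authors' deposited table gives -0.42 and an FDR of 0.0968. GENCODE lists a protein-coding gene, AL713999.1, that overlaps MUC1 on the same strand and has no deposited values. The sources used here do not tell how reads shared with it were assigned, so the MUC1 level is uncertain to that extent.

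CSPG4 (ENSG00000173546; chromosome 15, 75674322 to 75712848, GRCh38) was the member with the lowest level in NCI-H1650, at 1.13, 1.0 and 2.20 FPKM. In NCI-H1650Re it was at 10.8, 14.0 and 12.7 FPKM. The lowest NCI-H1650Re library lay far above the highest NCI-H1650 library, which was replicate 3. Deposited read counts were 209, 160 and 310 for NCI-H1650 and 1826, 2511 and 1906 for NCI-H1650Re, so the low level in NCI-H1650 was a detected one. The log2 change was 2.49 (SE 0.18, 95% interval 2.07 to 2.92, limma adjusted p = 0.000239), the 99.96th percentile of all genes tested. Added pseudocounts understate the change of a gene this low: with a pseudocount of 0.01 the log2 change was 3.19, and edgeR on the deposited counts gave 3.12. Without both replicate 3 libraries the ratio of means was 11.7. The authors' deposited table gives 3.09 and an FDR of 7.99e-35. GENCODE lists pseudogene copies of CSPG4 and antisense genes that overlap it. The sources used here do not tell how reads shared with copies were assigned or whether strand was used, so the CSPG4 level is uncertain to that extent.

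CSPG4 also marks pericytes and melanocytes, and markers of such cells were set beside it. Of 9 pericyte and smooth muscle markers, MCAM and NOTCH3 had values, summing to 30.6 to 34.3 FPKM in NCI-H1650 and 26.0 to 27.6 in NCI-H1650Re. Of 7 melanocyte markers, PMEL and MITF had values, summing to 8.70 to 9.95 and 5.59 to 9.10 FPKM. The first sum was lower in each NCI-H1650Re library than in any NCI-H1650 library, but its 2 genes moved apart. NOTCH3 fell from 29.2 ± 1.49 to 20.8 ± 2.74 FPKM, a call lost without NCI-H1650 replicate 2 (limma adjusted p = 0.0528). MCAM was higher on average in NCI-H1650Re, as CSPG4 was, at 3.42 ± 1.80 and 6.12 ± 2.27 FPKM, with lines that overlapped and no call (log2 change 0.70, limma adjusted p = 0.134). MCAM was called higher when NCI-H1650 replicate 3 or NCI-H1650Re replicate 1 was left out (limma adjusted p = 0.0394 and 0.0398), with both replicate 3 libraries left out (0.0241) and with the replicate block (0.0491), and its part in the CSPG4 result was not tested. The melanocyte sums overlapped between lines. MITF did not pass (log2 change -0.40). It was called lower without NCI-H1650Re replicate 3 (log2 change -0.58, limma adjusted p = 0.00394) and with both replicate 3 libraries left out (-0.63, limma adjusted p = 0.00213). Of 8 fibroblast markers, COL1A1, COL3A1, PDGFRA and FAP had values, summing to 23.8 to 28.6 FPKM in NCI-H1650 and 37.9 to 54.7 in NCI-H1650Re. That sum moved with CSPG4, mainly through COL3A1 (10.1 ± 1.65 and 32.5 ± 10.05 FPKM), and its part in the result was not tested. COL1A1 and FAP did not pass. COL1A1 was called higher without NCI-H1650Re replicate 3 (log2 change 0.76, limma adjusted p = 0.00206) and with both replicate 3 libraries left out (0.77, limma adjusted p = 0.00197). FAP was called lower without NCI-H1650 replicate 3 (-0.32, limma adjusted p = 0.0477) and with both left out (-0.29, limma adjusted p = 0.0409). Of 7 endothelial markers, TEK and ERG summed to 1.44 to 1.89 and 0.44 to 0.52 FPKM, and of 8 blood cell markers CD14 was at 1.09 to 1.86 and 0.13 to 0.29 FPKM. PDGFRB, RGS5, MLANA, SOX10, DCN, PECAM1 and PTPRC were not analysed here.

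F3 (ENSG00000117525; chromosome 1, 94529225 to 94541800, GRCh38) measured 13.4, 10.8 and 10.8 FPKM in the NCI-H1650 libraries and 11.6, 15.3 and 17.2 FPKM in the NCI-H1650Re libraries. NCI-H1650Re replicates 2 and 3 lay above all NCI-H1650 libraries, whereas replicate 1 lay below NCI-H1650 replicate 1. The log2 change was 0.30 (SE 0.14, 95% interval -0.04 to 0.63, limma adjusted p = 0.152). It passed without NCI-H1650Re replicate 1, at 0.45 (limma adjusted p = 0.0288), and was 0.14 without both replicate 3 libraries (limma adjusted p = 0.455). The authors' deposited table gives 0.30 and an FDR of 0.158.

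With 3 libraries a line, the smallest p of an exact permutation test (two-sided) is 0.1. That exact test gave p = 0.1 for EPCAM, CSPG4 and PROM2, p = 0.2 for F3 and p = 0.3 for MUC1. For EPCAM, CSPG4 and PROM2 the limma call held under every alternative run, with adjusted p up to 0.0420 for EPCAM without NCI-H1650Re replicate 2.

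**Figure D2:**
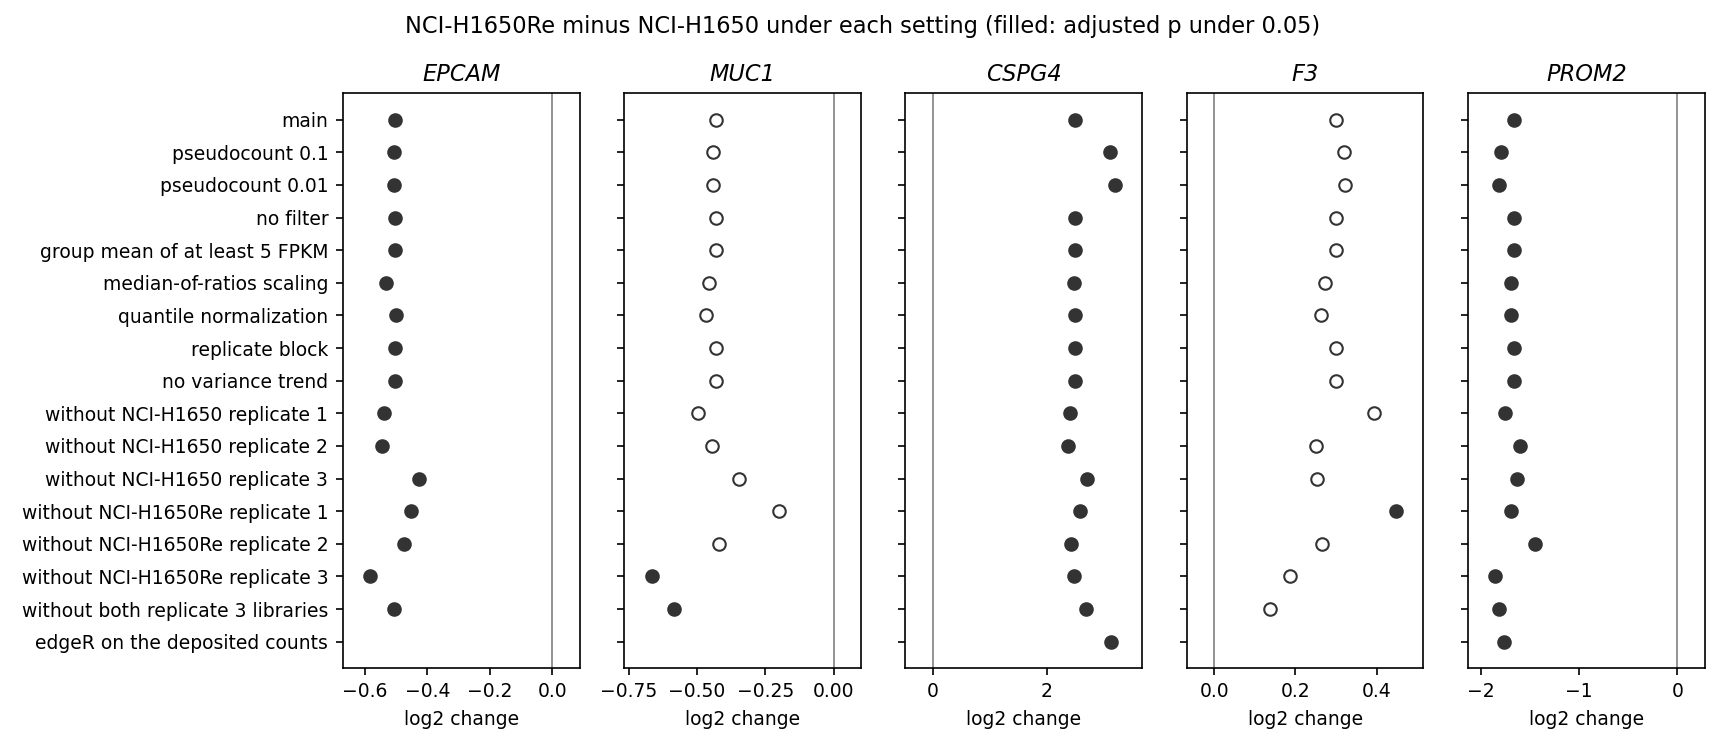
Log2 change of each antigen gene (horizontal axis, NCI-H1650Re minus NCI-H1650, own scale per gene) under each processing setting (rows; main is the fit described in the text); filled points have an adjusted p under 0.05. EPCAM, CSPG4 and PROM2 are filled in every row that has a value, MUC1 only without NCI-H1650Re replicate 3 or both replicate 3 libraries, and F3 only without NCI-H1650Re replicate 1.

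FPKM are scaled by length, so levels may be ordered between genes. In NCI-H1650 the order was EPCAM, MUC1, PROM2, F3 and CSPG4, and each gene lay above the next in every pair of libraries. In NCI-H1650Re the order was EPCAM, MUC1, F3, CSPG4 and PROM2, and only F3 and CSPG4 overlapped. PROM2 thus went from the third place to the last, and CSPG4 passed it. The level of PROM2 was 18.0, 25.5 and 11.1 times that of CSPG4 in NCI-H1650 replicates 1, 2 and 3 and 0.643, 0.332 and 0.703 times in those of NCI-H1650Re. The level of EPCAM was 124, 139 and 74.6 times that of CSPG4 in NCI-H1650 and 8.92, 7.10 and 9.13 times in NCI-H1650Re. The level of EPCAM remained above that of CSPG4 in all 6 libraries.

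Of 46 other genes for surface targets of cancer therapy, 28 were tested. Of these 2 rose, 11 fell and 15 did not pass, with a median log2 change of -0.19, against 0.03 over all genes tested. Over all genes tested 16.6% were called higher and 13.9% lower. The largest falls in this list were those of NECTIN4, a nectin targeted by enfortumab vedotin, from 4.52 ± 0.664 to 0.657 ± 0.280 FPKM, and ITGB6, an integrin subunit, from 2.49 ± 0.503 to 0.273 ± 0.275. Both passed the filter only through NCI-H1650, where they were higher. VTCN1, the checkpoint ligand B7-H4, fell from 18.5 ± 2.15 to 6.53 ± 2.61, and the cadherin CDH3 from 171 ± 5.76 to 68.9 ± 5.45. As a ratio of means, NCI-H1650 over NCI-H1650Re, PROM2 at 3.41 fell less than NECTIN4 at 6.88 and ITGB6 at 9.11. On log2(FPKM + 1), which understates changes of low genes, the values were -1.67, -1.74 and -1.47. The 2 genes that rose, named after their values were seen, were the receptor kinase EPHA2, from 34.7 ± 6.79 to 63.6 ± 8.10 FPKM, and mesothelin (MSLN), from 58.9 ± 7.30 to 78.8 ± 4.54. The rise of CSPG4 (2.49) was larger than that of EPHA2 (0.86). The MSLN call was lost without replicate 2 of either line (limma adjusted p = 0.0612 for NCI-H1650 and 0.0704 for NCI-H1650Re). The count of falls was 7 without NCI-H1650 replicate 1 and 6 without NCI-H1650 replicate 2. Leaving out NCI-H1650 replicate 3 gave 4 rises, leaving out NCI-H1650Re replicate 1 or 3 gave 3, and leaving out replicate 2 of either line gave 1. Without both replicate 3 libraries 6 of 27 rose and 12 fell, and the median was -0.08.

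LY6E, a small anchored surface protein, was at 175 ± 80.8 and 218 ± 21.2 FPKM and did not pass (limma adjusted p = 0.294). It passed without NCI-H1650 replicate 3 (limma adjusted p = 0.00908).

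**Figure D3:**
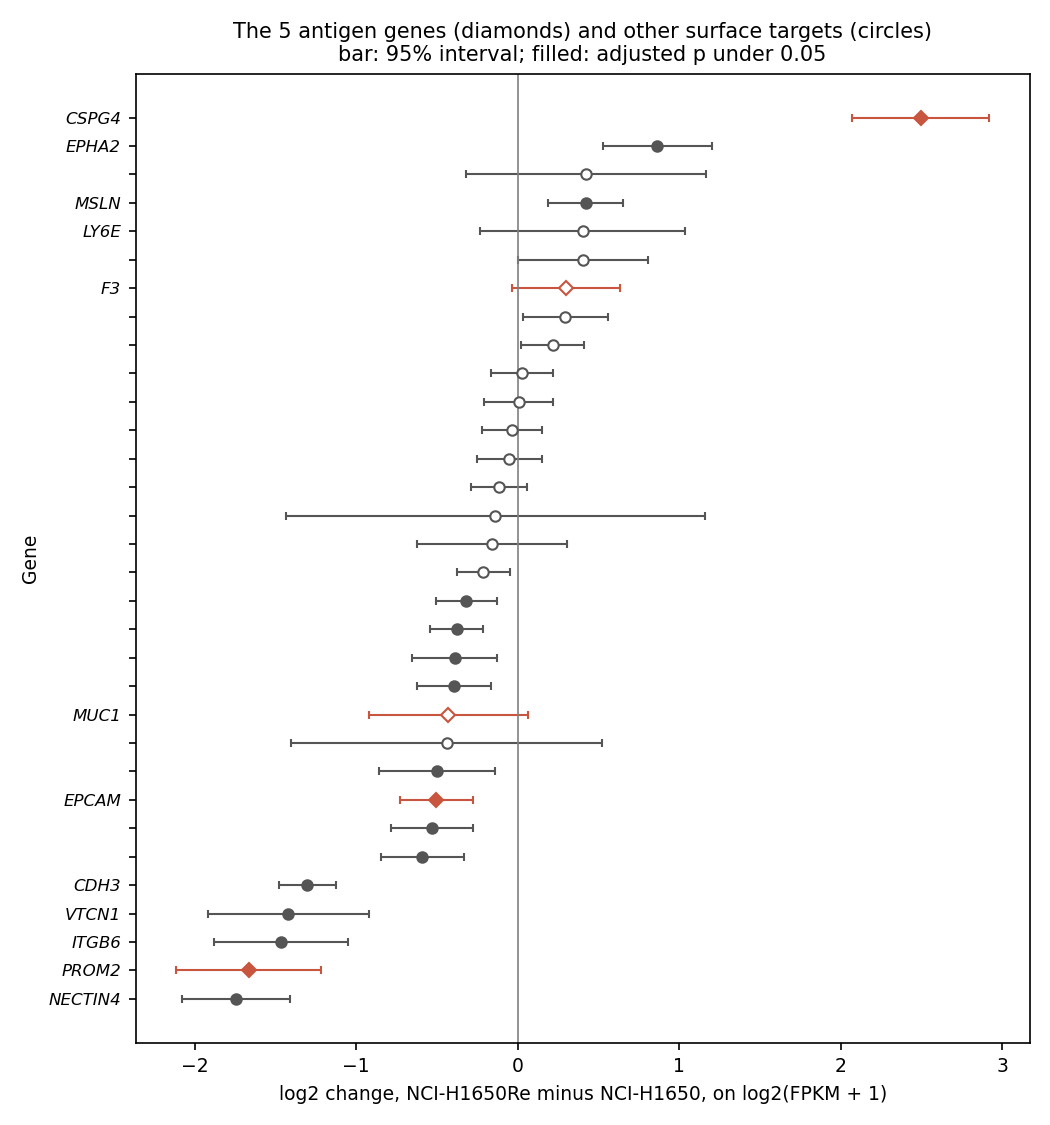
Log2 change, NCI-H1650Re minus NCI-H1650, of the 5 antigen genes (red diamonds) and other tested surface targets (grey circles), with unadjusted 95% intervals. Filled points have an adjusted p under 0.05. Names are given for the antigen genes and the surface targets described just above. CSPG4 lies highest, at 2.49, and PROM2, at -1.67, lies next to NECTIN4 at the lower end of this log2(FPKM + 1) scale.

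Each antigen gene was then set beside genes of its own pathway. The counts of calls in these lists stand beside 16.6% called higher and 13.9% lower over all genes tested. For EPCAM the list held partners in the membrane, such as claudins and tetraspanins, and the proteases that shed it. Of 14 tested, 1 rose, 2 fell and 11 did not pass (median log2 change -0.10). CD9, a tetraspanin, fell from 215 ± 11.1 to 137 ± 17.4 FPKM (limma adjusted p = 0.00322). NCSTN, the γ-secretase subunit nicastrin, fell from 34.5 ± 1.83 to 25.4 ± 3.89 FPKM. Its call was lost when NCI-H1650 replicate 2 or 3 (limma adjusted p = 0.0674 and 0.0574) or NCI-H1650Re replicate 2 (0.0779) was left out. FHL2, a partner of the EPCAM intracellular domain, rose from 12.3 ± 1.59 to 17.0 ± 2.75 FPKM with limma adjusted p = 0.0452, which ran up to 0.150 without NCI-H1650 replicate 2. The FHL2 call was also lost without replicate 1 of NCI-H1650 (limma adjusted p = 0.135), without replicate 1 or 2 of NCI-H1650Re (0.114 and 0.146), with both other scalings (0.0534 and 0.0621), with no variance trend (0.0516) and with the replicate block (0.0834). CLDN7, the claudin that binds EPCAM, was at 188 ± 9.51 and 172 ± 5.38 FPKM and did not pass (limma adjusted p = 0.171), nor did the protease inhibitor SPINT1, at 124 ± 12.0 and 111 ± 23.2.

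For MUC1 the list held mucins and the Golgi enzymes that build mucin-type O-glycans. Of 18 tested, 1 rose, 7 fell and 10 did not pass (median log2 change -0.19). MUC15, a membrane mucin, fell from 2.51 ± 1.25 to 0.540 ± 0.446 FPKM, and MUC3A rose from 0.340 ± 0.217 to 1.0 ± 0.116. MUC15 passed the filter only through NCI-H1650 and MUC3A only through NCI-H1650Re, in each case the line where the gene was higher. C1GALT1, which makes the core 1 O-glycan, fell from 14.0 ± 2.05 to 9.31 ± 0.565, and GALNT10, which starts O-glycans, from 51.0 ± 6.92 to 35.4 ± 2.64. Leaving out NCI-H1650Re replicate 2 ended the calls of MUC15 (limma adjusted p = 0.0636) and GALNT10 (0.0519). Leaving out NCI-H1650 replicate 2 ended those of MUC3A (limma adjusted p = 0.0709), C1GALT1 (0.0520) and GALNT10 (0.0554), and leaving out NCI-H1650 replicate 1 that of MUC3A (0.0612). The count of falls was 4 without replicate 2 of either line. Without NCI-H1650Re replicate 2 or 3, MUC3A fell under the filter and was not tested. GALNT2, at 112 ± 12.4 and 96.4 ± 1.74 FPKM, and GALNT7, at 45.7 ± 3.10 and 42.5 ± 4.87, did not pass. GALNT2 passed without NCI-H1650 replicate 3 (limma adjusted p = 0.0160).

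For CSPG4 the list held other proteoglycans and the enzymes that assemble chondroitin sulphate on them. Of 24 tested, 1 rose, 10 fell and 13 did not pass (median log2 change -0.25). CSPG4 thus rose while more genes of this list were called lower than higher. XYLT1, the xylosyltransferase that starts the chain, fell from 13.3 ± 1.03 to 5.06 ± 1.37 FPKM (limma adjusted p = 0.00189), and the chondroitin polymerizing factor CHPF2 from 23.7 ± 1.13 to 15.4 ± 1.88. GPC4, a glypican, fell from 4.05 ± 1.07 to 1.31 ± 0.962. CHST3, the sulphotransferase of the 6-position of chondroitin, rose from 8.89 ± 0.819 to 13.8 ± 2.13. GPC4 was not called without NCI-H1650 replicate 1 (limma adjusted p = 0.0902) or 2 (0.106) or with pseudocounts of 0.1 (0.0617) and 0.01 (0.0725), and CHST3 not without NCI-H1650 replicate 2 (0.0507). The count of falls was 5 when NCI-H1650 replicate 1 or NCI-H1650Re replicate 2 was left out and 3 when NCI-H1650 replicate 2 was. The count of rises was 3 without NCI-H1650Re replicate 1 or 3. SDC2, a syndecan, was at 22.4 ± 3.78 and 30.2 ± 7.84 FPKM and CHSY1, a chondroitin synthase, at 16.9 ± 1.08 and 20.4 ± 1.66, and neither passed. SDC2 passed without NCI-H1650Re replicate 1 (limma adjusted p = 0.0222). CHSY1, at limma adjusted p = 0.0524 in the main fit, passed without NCI-H1650Re replicate 3 (0.0164) and with both replicate 3 libraries left out (0.0219). With all 6 libraries it also passed under a filter of 5 FPKM (limma adjusted p = 0.0465) and with the replicate block (0.0464).

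For F3 the list held genes of coagulation and fibrinolysis. Of 11 tested, 1 rose, 2 fell and 8 did not pass (median log2 change -0.19). TFPI2, a protease inhibitor, rose from 4.94 ± 2.97 to 17.2 ± 3.41 FPKM (log2 change 1.71, limma adjusted p = 0.00612). It measured 3.54, 2.94 and 8.35 FPKM in the NCI-H1650 libraries and 20.2, 18.0 and 13.5 FPKM in the NCI-H1650Re libraries, so the lines did not overlap and were nearest in replicate 3. ANXA2, an annexin that binds plasminogen activator at the surface, fell from 1013 ± 93.8 to 738 ± 18.0. P4HB, a protein disulphide isomerase, fell from 432 ± 9.73 to 349 ± 22.1, a call that was lost without NCI-H1650 replicate 2 (limma adjusted p = 0.0717). The count of falls was 1 without NCI-H1650 replicate 2, and that of rises 2 without NCI-H1650Re replicate 1. ANXA5, at 215 ± 28.7 and 201 ± 16.8 FPKM, and the receptor F2RL1, at 41.1 ± 0.534 and 36.1 ± 6.92, did not pass.

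For PROM2 the list held prominin relatives, genes of cholesterol-rich membrane domains and genes of iron-dependent cell death. Of 16 tested, 3 rose, 3 fell and 10 did not pass (median log2 change 0.02, which was -0.01 with median-of-ratios or quantile scaling). SLC3A2 and SLC7A11, the subunits of the cystine transporter, rose from 113 ± 16.1 to 303 ± 8.26 FPKM and from 3.28 ± 0.433 to 9.81 ± 2.03. AIFM2, a ferroptosis suppressor, rose from 2.88 ± 0.581 to 4.83 ± 0.412. CAV1, the main protein of caveolae, fell from 165 ± 15.7 to 99.1 ± 5.26, the ferritin receptor NCOA4 from 34.0 ± 2.54 to 21.1 ± 2.57 and the tweety-family membrane protein TTYH3 from 87.7 ± 10.1 to 58.3 ± 6.65. AIFM2 and TTYH3 were named after their values were seen. The ferritin chains FTH1, at 3127 ± 246 and 2744 ± 292 FPKM, and FTL, at 518 ± 39.2 and 725 ± 184, did not pass. Both passed with quantile normalization (limma adjusted p = 0.00460 and 0.0345), and FTL without NCI-H1650Re replicate 3 (0.0222).

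With both replicate 3 libraries left out, the EPCAM list had 2 rises and 3 falls, the MUC1 list 1 and 9 among 17 genes, the CSPG4 list 3 and 11, the F3 list 2 and 3, and the PROM2 list 4 and 4. The list medians moved with single settings as well. That of the F3 list was -0.03 without NCI-H1650Re replicate 3 and -0.04 with both replicate 3 libraries left out. That of the EPCAM list was -0.06 without NCI-H1650Re replicate 1, and that of the MUC1 list -0.29 without NCI-H1650Re replicate 3. For the CSPG4 list it was -0.05 over the 19 genes that passed a filter of 5 FPKM, of which 2 rose and 9 fell. For the PROM2 list it ran from -0.01 without NCI-H1650Re replicate 2 to 0.10 without NCI-H1650Re replicate 3. Over all genes 5080 were called with both replicate 3 libraries left out, against 3587 with all 6 libraries.

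**Figure D4:**
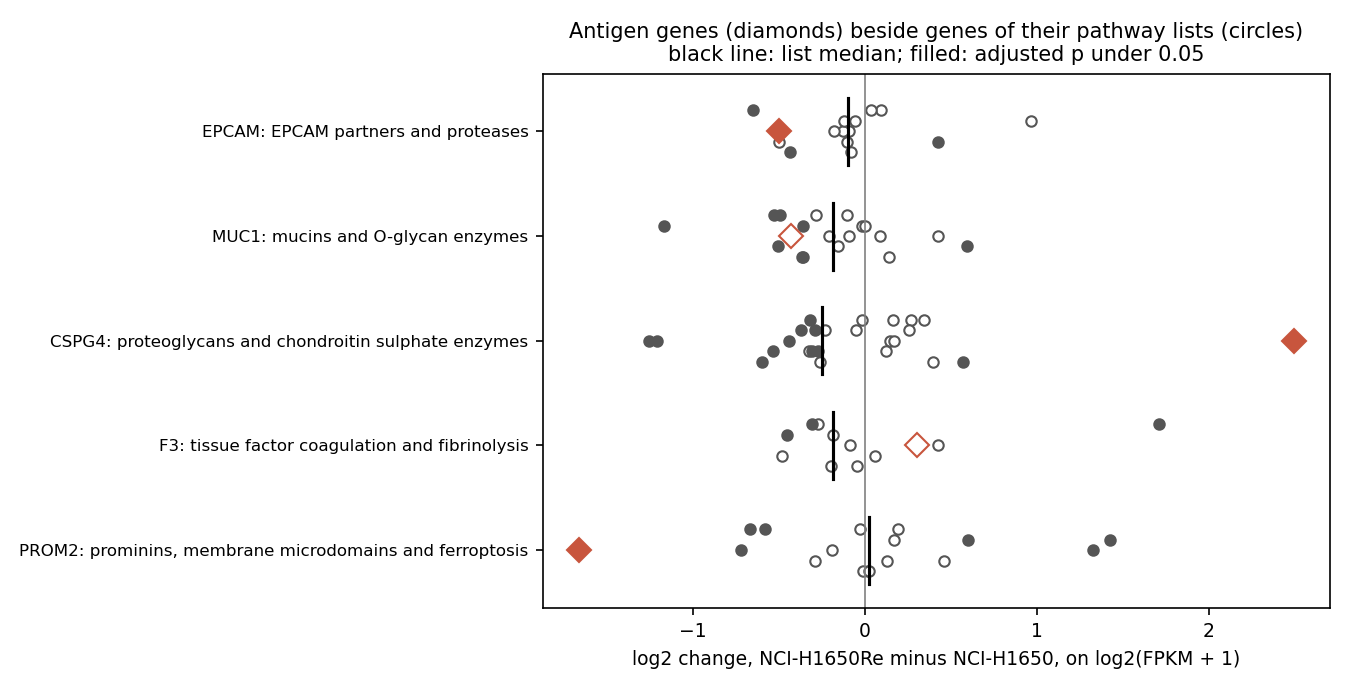
Log2 change, NCI-H1650Re minus NCI-H1650, of each antigen gene (red diamond) beside the tested genes of its pathway list (grey circles), with the list median as a black line; vertical offsets only separate points, and filled points have an adjusted p under 0.05. CSPG4, at 2.49, and PROM2, at -1.67, lie outside the range of their lists, and EPCAM, MUC1 and F3 lie within theirs.

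Neighbouring genes were compared to see whether whole stretches moved with a member. Over all genes tested, 16.6% were called higher and 13.9% lower. The 5 nearest tested genes on each side of CSPG4 had a median log2 change of 0.11, ranging from -0.06 to 0.54, and 3 rose (PTPN9, ETFA and ISL2). The flanking genes SNX33 and UBE2Q2 were at 6.21 ± 0.564 and 8.86 ± 0.377 FPKM in NCI-H1650 and at 5.89 ± 0.230 and 9.21 ± 0.202 in NCI-H1650Re. The 10 neighbours of PROM2 had a median of 0.06, ranging from -0.13 to 0.27, with 1 rise (STARD7), and ZNF2 and KCNIP3 beside it did not pass. None of the neighbours of CSPG4 or PROM2 moved as far as the gene between them. Around EPCAM the median was -0.16, with 1 rise (CALM2) and 1 fall (TTC7A), and the rise of CALM2, which lies beside it, was 0.33 on the log2 scale. Around MUC1 it was 0.01, with 3 rises, among them DPM3 and FAM189B, and 1 fall (EFNA1), and THBS3 beside it did not pass. Around F3 it was -0.04, with 3 falls (ARHGAP29, ABCD3 and SLC44A3). ABCD3 and SLC44A3 flank F3, and both were called lower where F3 itself did not pass.

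Of the calls on neighbours named here, those of PTPN9 and ETFA held with each library left out in turn. The call was lost without NCI-H1650Re replicate 2 for SLC44A3 (limma adjusted p = 0.0834), without replicate 2 of either line for TTC7A (0.0524 and 0.0718), and without NCI-H1650 replicate 1 or replicate 2 of either line for EFNA1 (0.0788 to 0.102). It was lost without replicate 1 or 2 of either line for ARHGAP29 (0.0604 to 0.101) and ABCD3 (0.0681 to 0.145), and without NCI-H1650 replicate 2 or 3 or NCI-H1650Re replicate 1 or 2 for CALM2 (0.0833 to 0.114). It was lost without any library but NCI-H1650 replicate 3 and NCI-H1650Re replicate 1 for ISL2 (0.0784 to 0.138), without any but NCI-H1650Re replicate 3 for DPM3 (0.0656 to 0.151) and FAM189B (0.0535 to 0.115), and without any of the 6 for STARD7 (0.0577 to 0.183).

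**Figure D5:**
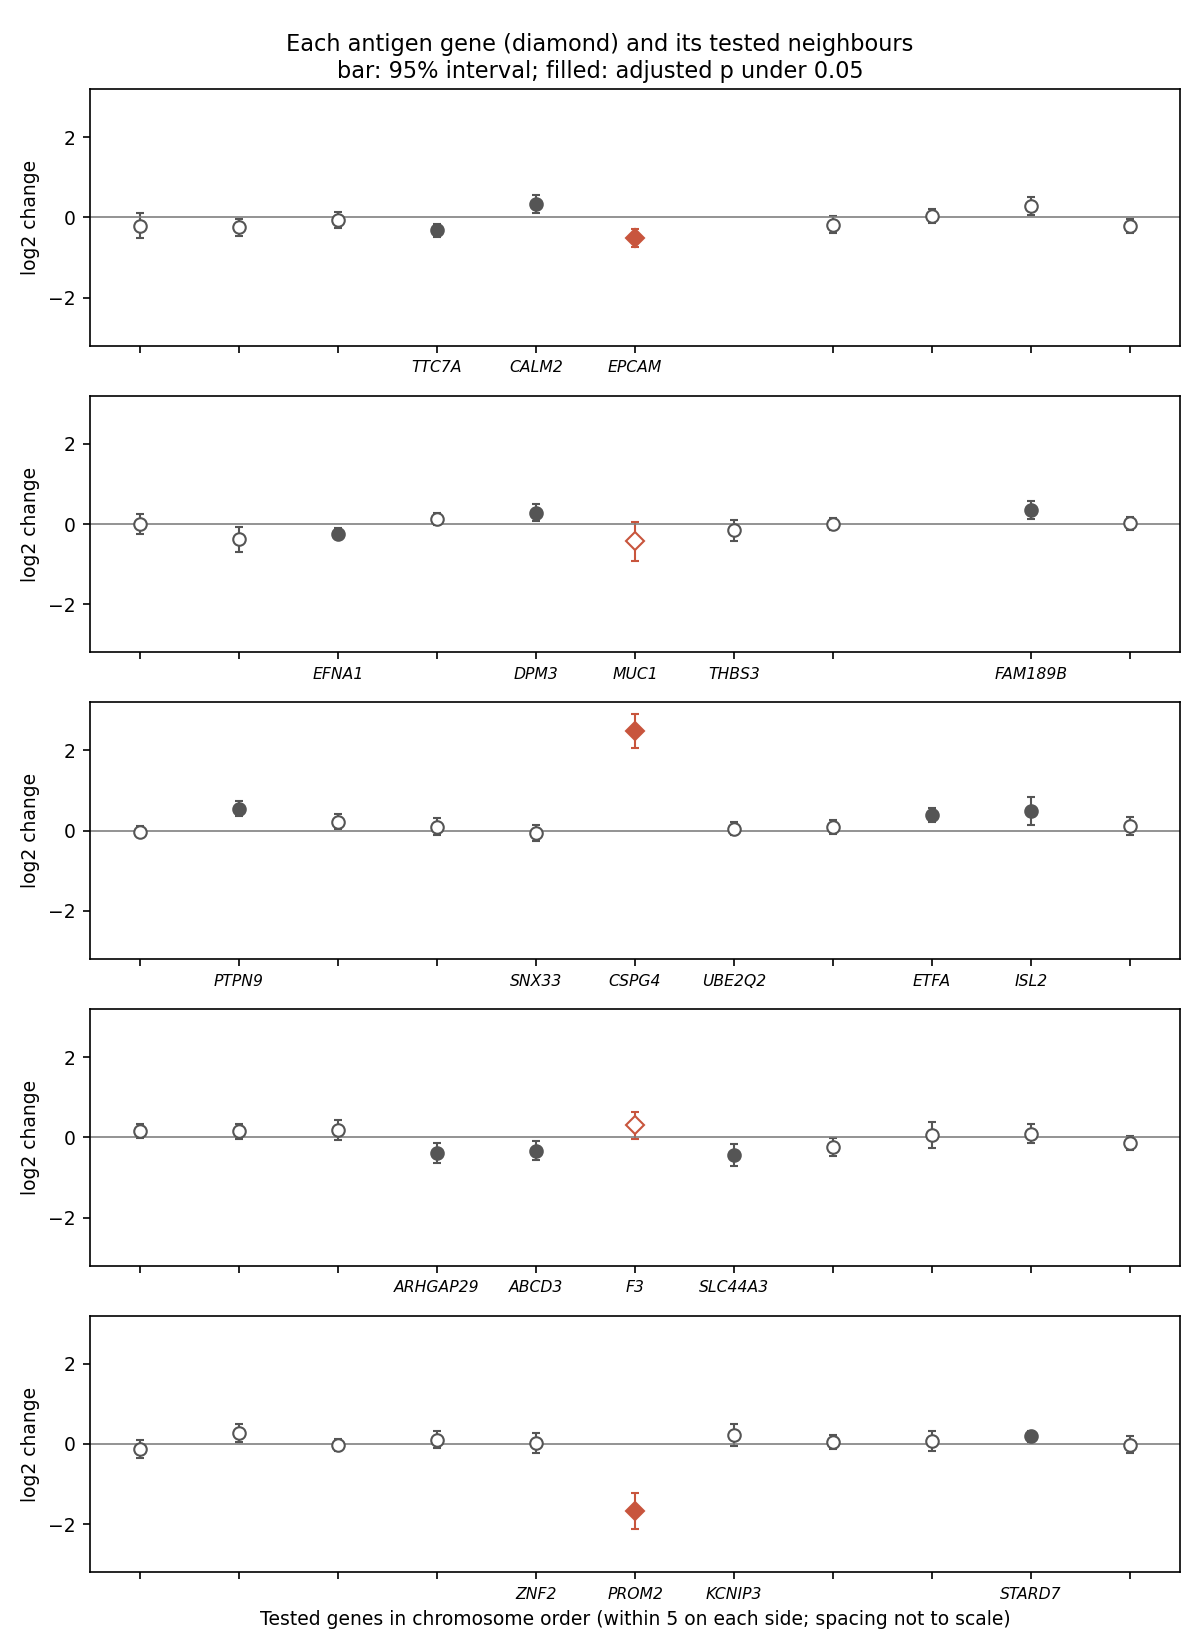
Log2 change, NCI-H1650Re minus NCI-H1650, of each antigen gene (red diamond) and of tested genes among the 5 nearest on each side (grey circles) in chromosome order, with unadjusted 95% intervals; filled points have an adjusted p under 0.05, and names are given for genes the text describes. CSPG4, at 2.49, and PROM2, at -1.67, stand apart from neighbours that lie between -0.13 and 0.54.

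Likeness of pattern was described by Pearson's r of log2(FPKM + 1) over the 6 libraries, among 11036 other named genes. The libraries form 2 lines, so a high r mostly states a like difference between lines and a like order of libraries. For CSPG4 the closest genes were SLC1A5, a glutamine transporter (r = 0.9997; 132 ± 11.4 and 247 ± 9.78 FPKM), the glycogen phosphorylase PYGB (0.9994) and OSBPL10 (0.998). For EPCAM they were the protease KLK6 (0.998; 74.3 ± 28.4 and 16.5 ± 6.73 FPKM), SLC24A3 (0.996) and GAREM1 (0.996). The level of KLK6 differed far more between lines than that of EPCAM. For PROM2 they were TEX9, RNF170 and PGAP3 (0.997, 0.996 and 0.996), for MUC1 ICA1, SUSD6 and KRT16 (0.996, 0.995 and 0.994), and for F3 KIAA1841, ALDH9A1 and PEA15 (0.987, 0.984 and 0.984). KRT16, a keratin, was at 88.9 ± 18.8 and 58.9 ± 36.6 FPKM.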

How the data were processed

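Polyadenylated RNA of 3 NCI-H1650 and 3 NCI-H1650Re libraries was sequenced. Of tools, HISAT2, Bowtie2, RSEM and DESeq2 are listed in the submitters' processing notes, with no versions. The build listed there is mm10, of the mouse, although identifiers in the tables are human. Which human build was used is not stated. FPKM of 12659 genes were computed and deposited by the authors, and how that table was filtered is not given. Read counts were deposited by the authors for the 860 genes they marked as regulated, CSPG4 and PROM2 among them. The log2 fold change and FDR (an adjusted p-value) of each gene are the authors' own, per the file headers.

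The members and lists were chosen with earlier results of these data known. Genes were named by rule: the 5 members, per list up to 4 called genes with the largest change and up to 2 abundant ones that did not pass, the genes beside each member and the 3 most alike; others are said to be named after their values were seen, and neighbours further off are named where called. Since counts covered only marked genes, limma with a variance trend was fitted to log2(FPKM + 1), with a minimum group mean of 1 FPKM. edgeR was run on the deposited counts, with depth from the ratio of counts to FPKM (244 genes between libraries, 8 genes for the level). Its p-values are adjusted over genes the authors had already selected. Positions came from GENCODE 29 (GRCh38), matched for 11909 genes, and promoters from RefSeq. On simulated data of 11764 genes limma called 52% of 50 genes simulated with a log2 change of 0.5 and 90% of 50 with a change of 1. It also called 9 genes simulated without a change. Far fewer genes were changed there than were called in the data, and none near the filter. These shares therefore do not give the recovery in this comparison. Some genes of the lists and neighbourhoods are counted but not reported here by name or drawn. R 4.3.3, limma 3.58.1, edgeR 4.0.16, Python 3.11.15 and matplotlib 3.10.9 were used.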

Additional observations from a re-analysis of the deposited data

How the results depend on the processing

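The settings changed were the pseudocount (0.1 or 0.01), the filter (none or 5 FPKM), the scaling (median of ratios or quantile), the replicate block, the variance trend and the libraries used (each left out, or both replicate 3 libraries). Under all of these EPCAM, CSPG4 and PROM2 kept direction and call. Their log2 changes ran from -0.58 to -0.43, from 2.37 to 3.19 and from -1.85 to -1.45. MUC1 and F3 kept direction. With 1 library left out MUC1 ran from -0.67 to -0.20 and passed without NCI-H1650Re replicate 3, and F3 ran from 0.19 to 0.45 and passed without NCI-H1650Re replicate 1. Without both replicate 3 libraries MUC1 passed at -0.58 and 5080 genes were called. The count of all genes called was 3587 and ran from 1785 (without NCI-H1650 replicate 2) to 4478 (without NCI-H1650Re replicate 3). It was 1898 when NCI-H1650Re replicate 2 was left out and 2386 when NCI-H1650 replicate 1 was. Of the 72 other genes chosen by the naming rules or named after their values were seen, only ZNF2, which did not pass, changed sign. It ran from -0.0453 to 0.0878 with 1 library left out. Of the cell type markers, which those rules do not cover, PDGFRA (log2 change 0.01, not passed) was below 0 under 6 settings, down to -0.03 with quantile scaling. Same-numbered libraries of the 2 lines had correlated deviations of 0.17, -0.04 and 0.21 for replicates 1, 2 and 3, so the numbers were not taken to pair them. Libraries did not all correlate best with their own number. With the replicate block 3522 genes were called, EPCAM had limma adjusted p = 0.00470, CSPG4 0.00168, PROM2 0.00400, MUC1 0.0504 and F3 0.207. At the fragments per kilobase that 1 FPKM stands for, CSPG4 in NCI-H1650 was the only member value near the filter.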
